A study of Mus musculus with 6 samples.

Results

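The genes described here encode the enzymes and carriers that burn fatty acids: the acyl-CoA synthetases, the carnitine shuttle, the mitochondrial beta-oxidation enzymes, the electron transfer flavoproteins that drain their electrons, the peroxisomal oxidation enzymes and a pair of transcriptional regulators. The list held 43 genes, taken by name as members of the pathway, with earlier results of these data known. Of these, 40 had a value among the 12153 genes measured, and 3 (*Cpt1c*, *Abcd2* and *Ppard*) had no row and were not analysed here. RNA-seq was done on regulatory T cells (Tregs) sorted from B16.F10 melanoma tumors at day 15 after inoculation, to learn what changes in tumor Tregs that lack the glucocorticoid receptor (GR), the nuclear receptor encoded by *Nr3c1*. There were 3 control libraries, labelled with the genotype Nr3c1-flox, and 3 libraries labelled Nr3c1-flox_Foxp3-YFP/Cre, called *Nr3c1* Foxp3-Cre Tregs below. Both groups are labelled with the floxed *Nr3c1* gene. Only the second is labelled with Cre, a recombinase made with YFP from the promoter of *Foxp3*, the master transcription factor of Tregs. By these labels, deletion of *Nr3c1* and the presence of Foxp3-YFP/Cre cannot be told apart. The labels describe the sorted cells as CD4+CD25+ Tregs, and the study's methods sort on Foxp3-YFP, which the control label does not list. The deposited values head the control libraries WT, and these were matched to the control labels by replicate number. The control genotype is uncertain to that extent, and neither the labels nor the methods say how many mice stand behind a library.

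A fatty acid is first joined to coenzyme A by an acyl-CoA synthetase, then handed to carnitine by CPT1 on the outer mitochondrial membrane, carried inward by the carnitine-acylcarnitine translocase and handed back to coenzyme A by CPT2. Inside, each turn of the beta-oxidation spiral dehydrogenates, hydrates, oxidizes and cleaves the chain to release acetyl-CoA, and the first of these steps is done by acyl-CoA dehydrogenases that differ in the chain length they prefer. Peroxisomes shorten very long and branched chains. Tregs are known for relying on lipid oxidation more than activated conventional T cells do, and tumors are a lipid-rich environment for them.

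Expression is given as log2 CPM, where CPM are counts scaled to a common library total, and the authors had quantile normalized the libraries. The depth of each library is unknown, because the values no longer hold read counts, and the number of libraries limits the precision. The moderated test of limma was run on genotype across all 12153 genes, with p-values adjusted over all of them by the Benjamini-Hochberg method. *Nr3c1* itself was at 7.15, 7.59 and 6.88 log2 CPM in control Tregs and at 6.14, 5.45 and 5.90 in *Nr3c1* Foxp3-Cre Tregs, a log2 difference of -1.38 (SE 0.21, limma adjusted p = 0.120) without overlap. *Tsc22d3*, a classic glucocorticoid-induced gene, was lower by a log2 difference of -1.56 (SE 0.16, limma adjusted p = 0.0342), and *Dusp1* and *Fkbp5*, also glucocorticoid-induced, differed by -0.56 and -0.16. All 10 Treg and CD4 T cell markers had values, led by *Trac* at 10.09 log2 CPM, and 0 of the 10 passed an unadjusted p under 0.05. They summed to between 4206 and 5769 CPM in the 6 libraries. *Foxp3* was between 3.39 and 4.47 log2 CPM, below the median level of all genes, 4.92. Markers of other cells were also present. The 10 melanocyte and melanoma markers, led by *Dct* at 11.5 log2 CPM, summed to between 4591 and 12550 CPM in the 6 libraries, the 10 macrophage markers, led by *Lyz2*, to between 434 and 867 CPM, and the 7 measured fibroblast and endothelial markers, led by *Col3a1*, to between 240 and 512 CPM in controls and between 150 and 232 CPM in *Nr3c1* Foxp3-Cre Tregs. Values were present for 0 of 5 neutrophil, 1 of 7 CD8 T and NK cell, 2 of 7 dendritic cell and 5 of 5 erythroid markers, and *Cd8a* had no row. In such bulk libraries, fewer cells of a type and less RNA per cell cannot be told apart. Values given below for Tregs are those of whole libraries, which also hold RNA of these other cells.

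The fatty acid oxidation genes differed little between control and *Nr3c1* Foxp3-Cre tumor Tregs. The largest difference was that of *Acadl*, the long-chain acyl-CoA dehydrogenase. *Acadl* was at 0.695 times its control level (95% interval 0.587 to 0.822, limma adjusted p = 0.390). *Acad10* was close in size, at 0.71 times its control level, but its groups overlapped. *Acsl1* and *Ehhadh* also had groups without overlap. Of the 40 genes, the log2 difference was above 0 for 19 and below 0 for 21. The median log2 difference of the 40 was -0.0092, beside -0.0014 over all genes, and the lower and upper quartiles were -0.074 and 0.0996, beside -0.104 and 0.111 over all genes. For 39 of the 40 the 95% interval of the difference lay within a 2-fold change in either direction, and for 27 within 0.5 on the log2 scale. The exception to the first count was *Acad10*, a little-studied dehydrogenase that was the lowest of the 40 in level.

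At an adjusted p under 0.05, 0 of the 40 genes were higher and 0 were lower in the limma test, where 0.00823% of all genes were higher and 0.0494% were lower. The unadjusted p was under 0.05 for 0 genes in the upward direction, beside 1.61% of all genes, and for 1 in the downward direction, *Acadl*, beside 1.65%. Groups did not overlap for 3 genes. *Acsl1* and *Ehhadh* were higher in all 3 *Nr3c1* Foxp3-Cre libraries than in any control library, where 3.69% of all genes were, and *Acadl* was lower in all 3, where 3.73% of all genes were. With 3 libraries against 3, an exact two-sided permutation test cannot give a p below 0.1. The shares for the list, 5% without overlap and higher and 2.5% lower, lie near those of all genes.

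**Figure D1:**
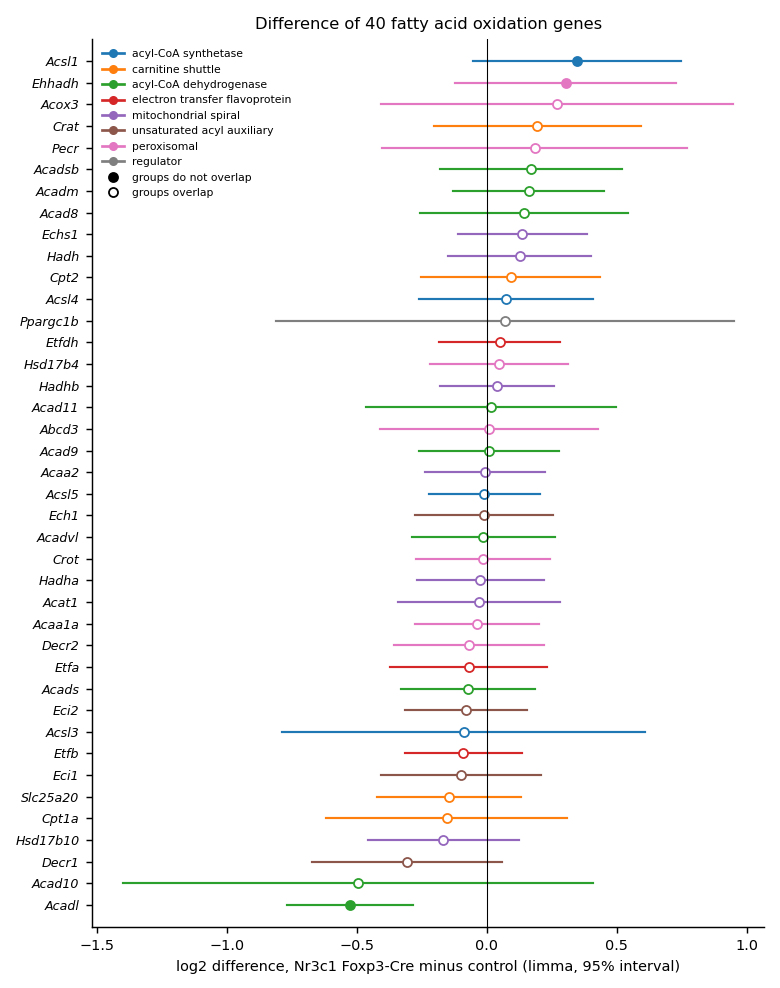
Log2 difference (*Nr3c1* Foxp3-Cre minus control, horizontal axis) of each of the 40 fatty acid oxidation genes, with its 95% interval from limma, colored by role; filled points mark the 3 genes whose groups do not overlap. The interval of *Acadl* runs from -0.77 to -0.28 and lies wholly below 0, and those of the other 39 genes include 0.

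The size of the differences lay near that of genes of like level. The median size of the difference, without its sign, was 0.0845 on the log2 scale over the 40 genes, 0.108 over all genes and 0.0864 over the 7170 genes whose mean level lay between percentiles 10 and 90 of the levels of the 40. A difference of over 0.25 in size was seen for 6 of the 40 and for 21.7% of all genes, a share not taken for genes of like level. For 34 of the 40 the difference was smaller than the larger SD of the 2 groups, as for 83.4% of all genes. The libraries of the 2 groups did not part as a whole. After centering each gene on its own mean, the median of the 40 genes was -0.032, 0.025 and 0.019 in control libraries 1 to 3 and -0.045, 0.034 and 0.039 in *Nr3c1* Foxp3-Cre libraries 1 to 3.

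**Figure D2:**
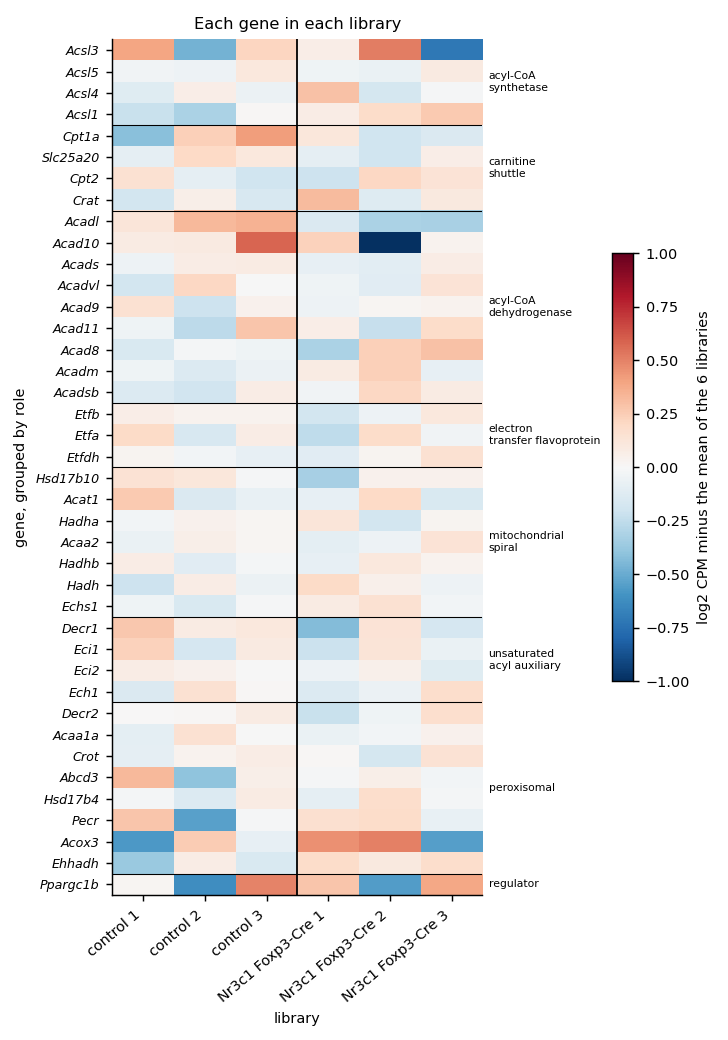
Level of each of the 40 genes (rows, grouped by role) in each of the 6 libraries (columns), as log2 CPM minus the gene's mean over the 6 libraries; red is above and blue below that mean, and the color scale stops at 1. The row of *Acadl* is red in the 3 control libraries and blue in the 3 *Nr3c1* Foxp3-Cre libraries, and the rows of most other genes mix both colors within a group.

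Levels can be compared between genes only per length, so CPM was divided by the length in kilobases of each gene's longest annotated transcript before the log2 was taken. *Etfb* and *Etfa*, the subunits of the flavoprotein that takes electrons from the acyl-CoA dehydrogenases, were at 7.93 and 7.39 log2 CPM per kb. *Ech1*, an isomerase for unsaturated chains, lay between them at 7.44. *Acadvl*, the very long-chain dehydrogenase, was at 6.96, and *Acsl5*, a long-chain acyl-CoA synthetase, was the highest of the synthetases at 6.46. *Acadl* came at place 10 with 5.91 and *Acadm*, the medium-chain dehydrogenase, was at 4.41. *Cpt1a*, which encodes the enzyme of the step held to set the rate of mitochondrial import, was at 3.81 and its partner *Cpt2* at 4.34, an order that turned with the median transcript length (6.03 and 5.99). The lowest were *Acsl1* (1.51), *Ppargc1b* (0.23) and *Acad10* (-0.59).

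The order is coarse. Of the 39 pairs of neighbors in it, 27 did not differ by more than the SD of their difference over the 6 libraries. The other 12 did, and in 11 of these the higher gene was higher in all 6 libraries. With the median in place of the longest transcript length, 7 of the 10 highest genes were among the 10 highest again. In log2 CPM, without length, the 40 genes ran from 1.66 to 8.54 with a median of 5.97, and 32 of them lay above the median of all genes, 4.92. Their median SD over the 6 libraries was 0.158, beside 0.214 over all genes and 0.172 over the same 7170 genes, and this difference was not tested.

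**Figure D3:**
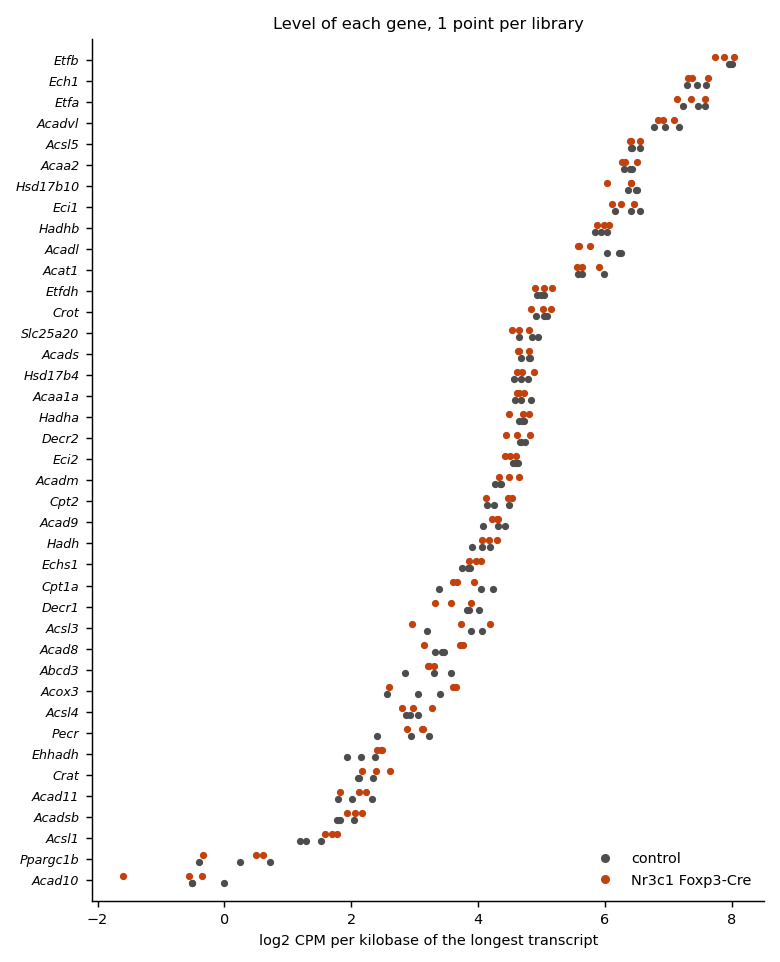
Level per length (log2 CPM per kilobase of the longest transcript, horizontal axis) of the 40 genes in each library, ordered by mean; grey points are control and orange points *Nr3c1* Foxp3-Cre libraries. The range runs from *Etfb* at a mean of 7.93 to *Acad10* at -0.59, and the orange points of *Acadl* all lie left of its grey points.

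Among the acyl-CoA synthetases, which trap fatty acids in the cell, *Acsl1* stood highest in difference. It was at 3.79, 3.70 and 4.03 log2 CPM in control Tregs and at 4.09, 4.20 and 4.27 in *Nr3c1* Foxp3-Cre Tregs. The highest control library lay just below the lowest *Nr3c1* Foxp3-Cre library. The log2 difference was 0.35 (SE 0.18, 95% interval -0.05 to 0.75), which did not pass the test. *Acsl4*, which prefers arachidonic acid and other polyunsaturated chains, was at 5.26, 5.45 and 5.32 in control and 5.67, 5.21 and 5.37 in *Nr3c1* Foxp3-Cre Tregs, with the highest and the lowest library both in the latter group (difference 0.07, SE 0.15). *Acsl5* was the steadiest of the family, with a log2 difference of -0.01 and a 95% interval from -0.22 to 0.20. *Acsl3*, an enzyme of lipid droplets and the endoplasmic reticulum, differed by -0.09 (SE 0.31), and its libraries were spread widely within both groups.

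In the carnitine shuttle 4 of 5 genes had values, 2 higher and 2 lower, and 0 passed an unadjusted p under 0.05. *Cpt1a* was at 5.50, 6.16 and 6.34 log2 CPM in control Tregs and at 6.04, 5.72 and 5.77 in *Nr3c1* Foxp3-Cre Tregs. Control library 1 was the lowest of the 6 and control libraries 2 and 3 were the highest, so that the control group spanned the other. The log2 difference was -0.16 (SE 0.21), and its interval, from -0.62 to 0.31, leaves room for a change of either sign. *Slc25a20*, the translocase of the inner membrane, was at 6.11, 6.40 and 6.30 in control and at 6.11, 5.997 and 6.27 in *Nr3c1* Foxp3-Cre Tregs (difference -0.15, SE 0.12). *Cpt2* was at 5.73, 5.49 and 5.38 in control and at 5.38, 5.79 and 5.71 in *Nr3c1* Foxp3-Cre Tregs (difference 0.09, SE 0.15). *Crat*, which moves acetyl groups between coenzyme A and carnitine, was at 4.18, 4.42 and 4.21 in control and at 4.69, 4.24 and 4.46 in *Nr3c1* Foxp3-Cre Tregs (difference 0.19, SE 0.18). All 3 of these genes had groups that overlapped.

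The acyl-CoA dehydrogenases held the largest difference of the list. *Acadl* (ENSMUSG00000026003.5) lies on the minus strand of chromosome 1 of mm10, from 66830839 to 66863277. It was at 6.96, 7.17 and 7.19 log2 CPM in control Tregs and at 6.70, 6.52 and 6.52 in *Nr3c1* Foxp3-Cre Tregs. Each of the latter lay below every control library, and the gap between the groups was wider than the whole range within either. The log2 difference was -0.53 (SE 0.11, 95% interval -0.77 to -0.28), with an unadjusted p of 0.000797 and a limma adjusted p of 0.390. The study had named *Acadl* from these same libraries, so its value here is not independent evidence. Its adjusted p fell under 0.05, to 0.0346, in 1 of 14 alternatives, when limma weighted libraries by their estimated quality, a fit in which control library 3 carried a weight of 7.47 and the others weights between 0.52 and 0.86.

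*Acadvl*, which acts just before *Acadl* on longer chains, was at 7.89, 8.28 and 8.07 log2 CPM in control Tregs and at 8.03, 7.96 and 8.21 in *Nr3c1* Foxp3-Cre Tregs, with almost full overlap (difference -0.01, 95% interval -0.29 to 0.26). *Acadm*, which takes over as chains shorten, was at 5.40, 5.30 and 5.38 in control and at 5.53, 5.68 and 5.36 in *Nr3c1* Foxp3-Cre Tregs (difference 0.16, SE 0.13). Only *Nr3c1* Foxp3-Cre library 3 fell within the control range. Within each library, the log2 CPM of *Acadl* minus that of *Acadm* was 1.57, 1.86 and 1.80 in control Tregs and 1.18, 0.84 and 1.16 in *Nr3c1* Foxp3-Cre Tregs. Transcript length shifts such a difference by the same amount in every library, so only its change between groups can be read. The log2 CPM of *Acadl* minus that of *Acadvl* was -0.92, -1.12 and -0.88 in control and -1.33, -1.44 and -1.69 in *Nr3c1* Foxp3-Cre Tregs. Neither difference within a library overlapped between the groups, which describes the change of *Acadl* against its nearest relatives and adds no test to it.

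*Acad10*, at 1.74, 1.75 and 2.24 log2 CPM in control and 1.89, 0.64 and 1.70 in *Nr3c1* Foxp3-Cre Tregs, owed most of its log2 difference of -0.50 (SE 0.40) to the low value of *Nr3c1* Foxp3-Cre library 2. Without that library the difference was -0.11. The remaining dehydrogenases, *Acads* for short chains, *Acadsb* and *Acad8* for branched chains from amino acids, *Acad9*, which also helps to assemble respiratory complex I, and *Acad11*, differed by between -0.07 and 0.17, all with overlapping groups.

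**Figure D4:**
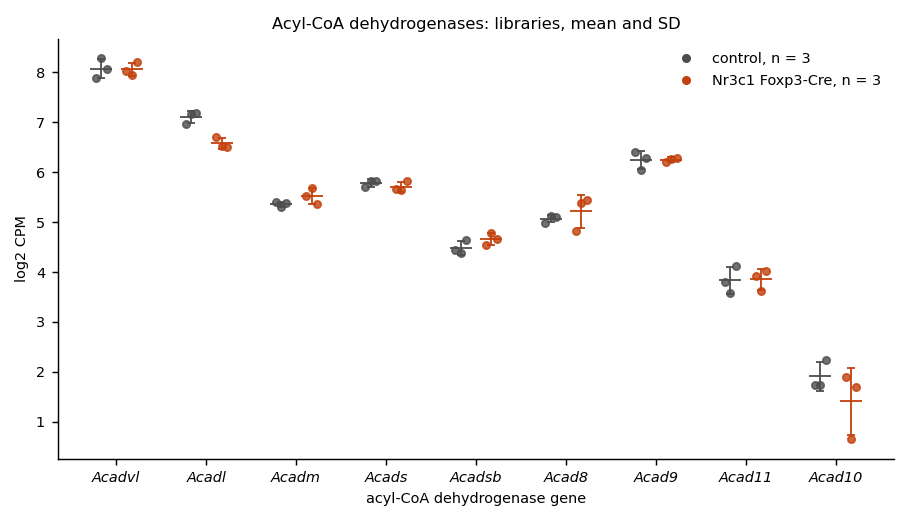
Log2 CPM of the 9 acyl-CoA dehydrogenase genes in control (grey) and *Nr3c1* Foxp3-Cre (orange) Tregs; points are libraries (n = 3 a group), horizontal lines are means and bars are SDs. The groups are apart for *Acadl*, at means of 7.11 and 6.58, and overlap for the other 8 genes.

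The promoters of 3 dehydrogenase genes are shown because *Acadl* parted from *Acadm* and *Acadvl* in the same libraries. Each runs over 250 bases up to the RefSeq start site on the gene's own strand (GRCm38.p6, the assembly of mm10): *Acadl* at chr1:66863310-66863559, *Acadm* at chr3:153944644-153944893 and *Acadvl* at chr11:70015429-70015678, all on the minus strand. Capitals mark the nuclear receptor half-site AGGTCA, searched on both strands; many lipid metabolism regulators bind this motif, alone or repeated.
Acadl: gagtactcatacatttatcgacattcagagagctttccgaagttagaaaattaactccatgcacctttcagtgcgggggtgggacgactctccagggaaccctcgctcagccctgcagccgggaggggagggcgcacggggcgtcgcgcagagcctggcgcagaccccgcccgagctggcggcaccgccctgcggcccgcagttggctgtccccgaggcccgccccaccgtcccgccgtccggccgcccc
Acadm: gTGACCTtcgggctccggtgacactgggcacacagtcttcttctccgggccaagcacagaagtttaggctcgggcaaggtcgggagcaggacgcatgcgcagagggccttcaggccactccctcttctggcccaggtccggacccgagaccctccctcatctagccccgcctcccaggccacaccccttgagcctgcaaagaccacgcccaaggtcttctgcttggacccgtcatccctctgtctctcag
Acadvl: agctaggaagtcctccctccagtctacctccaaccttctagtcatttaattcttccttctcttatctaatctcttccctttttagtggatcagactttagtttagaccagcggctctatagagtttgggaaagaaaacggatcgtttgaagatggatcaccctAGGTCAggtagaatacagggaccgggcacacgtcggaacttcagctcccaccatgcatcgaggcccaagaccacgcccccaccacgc
The *Acadl* window is rich in G and C (68.0%) and holds 0 matches to AGGTCA. *Acadm* (64.0% G and C) holds 1, on the reverse strand, and *Acadvl* (49.6%) holds 1. Promoter windows were found for 33 of the 40 genes, 35 windows in all. AGGTCA was present in 4 of the 35 (11.4%, those of *Acadm*, *Acadvl*, *Cpt1a* and *Echs1*), beside 14.0% of all 32851 mouse promoter windows of the same length. The longer AAGGTCA, which contains it, was in 1 of the 35 (2.86%, *Acadm*), beside 4.08% of all. The core of the palindrome bound by GR, ACANNNTGT, was in 1 of the 35 (2.86%, *Hadh*), beside 5.84% of all. Half-sites repeated with a spacer of 1 base, the direct repeat 1 motif, were in 0 of the 35 and in 0.0335% of all. These counts describe letters in a short window and say nothing of binding.

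The genes next to *Acadl* were looked at for a difference along the chromosome. Within 1 Mb, 3 other genes had values, and 0 of them passed an unadjusted p under 0.05, beside 3.26% of all genes. So few genes cannot resolve a difference along the chromosome. They were *Rpe* (log2 difference -0.05), *Kansl1l* (-0.42, SE 0.30) and *Lancl1* (-0.15), and the groups overlapped for all 3.

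Electrons from all acyl-CoA dehydrogenases pass through ETF, made of ETFA and ETFB, to ETFDH and then to ubiquinone. *Etfdh* was at 6.95, 6.89 and 6.84 log2 CPM in control Tregs and at 6.81, 6.94 and 7.07 in *Nr3c1* Foxp3-Cre Tregs (difference 0.05, SE 0.10). *Etfa* and *Etfb* differed by -0.07 and -0.09. The difference of *Etfa* from *Etfb* within a library, a measure of how the subunits kept step, ranged from -0.09 to 0.22 in control and from -0.03 to 0.34 in *Nr3c1* Foxp3-Cre Tregs, with overlap.

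The remaining steps of the mitochondrial spiral had 7 genes, of which 3 were higher and 4 lower, with 0 at an unadjusted p under 0.05. *Hadha* and *Hadhb* encode the subunits of the trifunctional protein, which hydrates, oxidizes and cleaves long chains. Their start sites lie 86 bases apart, head to head on chromosome 5. *Hadha* was at 6.66, 6.73 and 6.71 log2 CPM in control Tregs and at 6.80, 6.50 and 6.71 in *Nr3c1* Foxp3-Cre Tregs (difference -0.03, 95% interval -0.27 to 0.22). *Hadhb* was at 8.17, 7.98 and 8.08 in control and at 8.01, 8.20 and 8.13 in *Nr3c1* Foxp3-Cre Tregs (difference 0.04, 95% interval -0.18 to 0.26). Both pairs of groups overlapped. Since *Hadha* takes up the products of ACADL, its level was also set beside that of *Acadl*. Per length, *Acadl* was above *Hadha* in both groups, at 6.17 and 4.69 log2 CPM per kb in control Tregs and at 5.64 and 4.67 in *Nr3c1* Foxp3-Cre Tregs. The difference within a library was smaller in each *Nr3c1* Foxp3-Cre library than in any control library. This restates the lower *Acadl* beside a *Hadha* that differed by -0.03, and adds no test to it.

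*Hsd17b10*, a hydroxyacyl-CoA dehydrogenase that is also a subunit of mitochondrial RNase P, was at 6.51, 6.48 and 6.36 log2 CPM in control Tregs and at 6.03, 6.41 and 6.41 in *Nr3c1* Foxp3-Cre Tregs. Only *Nr3c1* Foxp3-Cre library 1 lay clearly below the others (difference -0.17, SE 0.13), and without it the difference was -0.04. *Echs1*, the short-chain hydratase, *Hadh*, the short-chain hydroxyacyl-CoA dehydrogenase, and the thiolases *Acaa2* and *Acat1* differed by between -0.03 and 0.14.

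Unsaturated fatty acids need auxiliary enzymes that move or remove double bonds. All 4 of these genes had a log2 difference below 0, from -0.31 to -0.01, and 0 of 4 passed an unadjusted p under 0.05. *Decr1*, the mitochondrial dienoyl-CoA reductase, was at 5.58, 5.39 and 5.42 log2 CPM in control Tregs and at 4.88, 5.45 and 5.14 in *Nr3c1* Foxp3-Cre Tregs. *Nr3c1* Foxp3-Cre library 2 lay within the control range and the other libraries of its group below it. The difference was -0.31 (SE 0.16, 95% interval -0.67 to 0.06). The isomerases *Eci1*, *Eci2* and *Ech1* differed by -0.10, -0.08 and -0.01.

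Of the peroxisomal genes, 8 of 9 had values, 5 higher and 3 lower. *Ehhadh*, the bifunctional enzyme that hydrates and oxidizes chains inside peroxisomes, was at 3.51, 3.95 and 3.72 log2 CPM in control Tregs and at 4.06, 3.97 and 4.05 in *Nr3c1* Foxp3-Cre Tregs. The groups did not overlap, but the highest control and the lowest *Nr3c1* Foxp3-Cre library were close, and the log2 difference of 0.30 (SE 0.19, 95% interval -0.12 to 0.73) did not pass the test. Without control library 1 it was 0.19. *Acox3*, an oxidase of branched chains, was at 4.56, 5.39 and 5.05 in control and at 5.59, 5.64 and 4.58 in *Nr3c1* Foxp3-Cre Tregs. Its log2 difference of 0.27 (SE 0.30) came with a wide spread in both groups, and it was 0.05 without control library 1 and 0.61 without *Nr3c1* Foxp3-Cre library 3. *Crot*, which hands shortened chains to carnitine for export, was at 6.50, 6.63 and 6.66 in control and at 6.60, 6.42 and 6.73 in *Nr3c1* Foxp3-Cre Tregs (difference -0.01, SE 0.11). The other 5, the transporter *Abcd3*, the bifunctional enzyme *Hsd17b4*, the thiolase *Acaa1a* and the reductases *Decr2* and *Pecr*, differed by between -0.07 and 0.18.

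*Ppargc1b*, a coactivator of nuclear receptors that promotes mitochondrial gene expression, was the regulator with a value. It was at 2.12, 1.48 and 2.59 log2 CPM in control Tregs and at 2.37, 1.54 and 2.49 in *Nr3c1* Foxp3-Cre Tregs. The spread within each group was far larger than the log2 difference of 0.07 (SE 0.39), whose interval ran from -0.81 to 0.95.

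Exons of 16 of the 40 genes share bases with another annotated gene, among them *Acsl3* with *Utp14b*, *Acsl5* with *Zdhhc6*, *Acadvl* with *Dvl2*, *Crat* with *Dolpp1*, *Hadha* with *Garem2*, *Echs1* with *Paox* and *Acaa1a* with *Myd88*. *Utp14b* lies on the same strand as *Acsl3*, and the other neighbors named here lie on the opposite strand. The library protocol does not mark strand, so strand cannot assign reads of shared bases in either case. These levels are uncertain to that extent. *Acaa1a* also has a near copy, *Acaa1b*, which had no row, and reads of both could have been counted for it. *Acadl*, *Cpt1a*, *Acadm* and *Ehhadh* share no exon bases with another gene.

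The genes were also set against the tumor cell markers, a reading chosen after the values were seen. The mean of the 10 melanocyte and melanoma markers was 8.43, 7.15 and 8.21 log2 CPM in control libraries 1 to 3 and 7.96, 8.41 and 7.16 in *Nr3c1* Foxp3-Cre libraries 1 to 3. *Acsl3*, which the rule for named genes did not pick, was at 6.04, 5.18 and 5.87 in control Tregs and at 5.72, 6.17 and 4.94 in *Nr3c1* Foxp3-Cre Tregs. It was lowest in the 2 libraries with the lowest marker mean and highest in the 2 with the highest. In a limma fit with genotype and marker mean, *Acsl3* changed by 0.81 (SE 0.12) per log2 unit of the marker mean (adjusted p = 0.00452). It was the only one of the 40 genes at an adjusted p under 0.05, as 1 gene rising with the markers, beside 2.28% of all genes, and 0 falling, beside 0.148%. Without control library 2 the adjusted p was 0.0562, and without *Nr3c1* Foxp3-Cre library 2 it was 0.0523. At an unadjusted p under 0.05, *Acsl3*, *Acat1* (0.25 per log2 unit) and *Abcd3* (0.31) rose with the markers and *Acadvl* (-0.24) and *Ech1* (-0.21) fell, 5 of 40 genes, beside 16.8% of all genes. *Acadl* changed by -0.04 (SE 0.10) per log2 unit, and with the marker mean in the fit it was still at an unadjusted p under 0.05 for genotype. Log2 differences below 0 were also seen for all 10 macrophage markers (median -0.46), 6 of 7 fibroblast and endothelial markers (median -1.41) and all 5 erythroid markers (median -0.65). Among the fibroblast and endothelial markers, the collagen genes *Col1a1*, *Col1a2* and *Col3a1* differed by -1.87, -1.69 and -1.41. The endothelial genes *Pecam1* and *Kdr* differed by 0.28 (SE 0.12) and -0.13 (SE 0.87). The part of all these markers in the differences of the fatty acid oxidation genes was not tested.

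**Figure D5:**
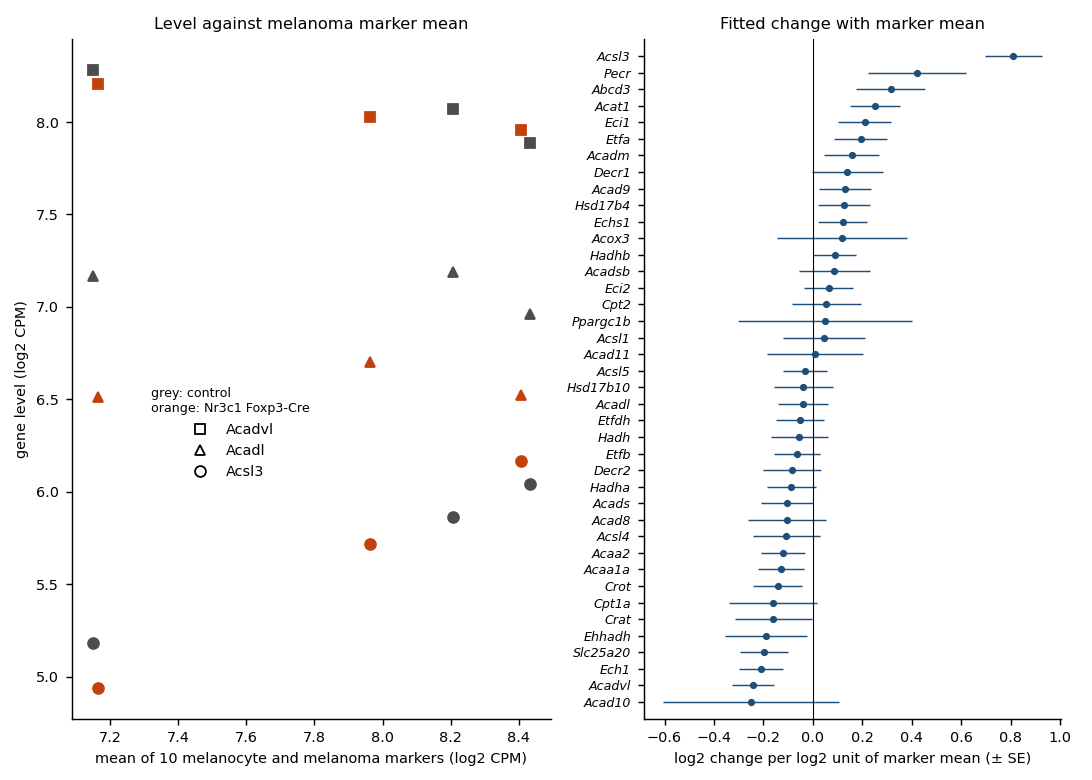
Left, log2 CPM of *Acadvl* (squares), *Acadl* (triangles) and *Acsl3* (circles) against the mean log2 CPM of 10 melanocyte and melanoma markers in each of the 6 libraries (grey control, orange *Nr3c1* Foxp3-Cre). Right, the fitted log2 change of each of the 40 genes per log2 unit of that mean, with its SE; *Acsl3* stands at 0.81, and the others lie between -0.25 and 0.42.

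The wider pathway was read from a list of 87 further genes, for lipid uptake, lipid droplets, malonyl-CoA and AMPK, other acyl-CoA enzymes and transcriptional regulators, of which 78 had values. Their median log2 difference was -0.01, and 0 passed an adjusted p under 0.05. Unadjusted p-values under 0.05 were seen for 2 genes with higher and 2 with lower values, where 1.61% and 1.65% of all genes were. *Ppara* and *Pdk4*, a lipid-sensing receptor and a kinase that favors fat over glucose, had no row. *Prkab2*, a regulatory subunit of AMPK, was at 0.62, 2.35 and 1.56 log2 CPM in control Tregs and at 2.63, 2.42 and 2.58 in *Nr3c1* Foxp3-Cre Tregs, without overlap (difference 1.03, SE 0.43). Leaving out control library 1 brought the difference to 0.59, and leaving out control library 2 to 1.46. *Stk11*, which encodes the kinase LKB1 that activates AMPK, was at 4.44, 4.39 and 4.53 in control and at 4.19, 3.71 and 4.03 in *Nr3c1* Foxp3-Cre Tregs, without overlap in the other direction (difference -0.48, SE 0.18). Neither passed an adjusted p under 0.05. *Acot9*, a mitochondrial thioesterase that releases fatty acids from coenzyme A, was at 7.48, 7.79 and 7.52 in control and at 7.34, 7.16 and 7.44 in *Nr3c1* Foxp3-Cre Tregs (difference -0.28, SE 0.12), also without overlap. *Nrip1*, a corepressor of nuclear receptors that restrains oxidative genes, was at 5.42, 6.27 and 5.71 in control and at 6.38, 6.17 and 6.26 in *Nr3c1* Foxp3-Cre Tregs (difference 0.47, SE 0.19), where control library 2 reached into the other group. Leaving out control library 1 brought it to 0.28.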

How the data were processed

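RNA was measured by RNA-seq in 6 libraries of sorted tumor Tregs, grouped by the genotype in the sample labels. Per the labels and the study's methods, the authors used Cutadapt for trimming, STAR for alignment to mm10 and RSEM with GENCODE M21 for estimated counts, then dropped genes of low counts and quantile normalized, and the deposited values are log2 CPM after that step. That normalization gives every library the same distribution (each sums to 999633 or 999634 CPM), so a shift shared by all genes cannot be seen. Read counts and voom weights cannot be recovered, and depth is unknown.

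The fit used limma 3.58.1 (R 4.3.3) on all 12153 genes, with genotype alone in lmFit and trend=TRUE in eBayes. P-values were adjusted across the 12153 genes (Benjamini-Hochberg) with a threshold of 0.05. The script was tested on simulated data. P-values measure the spread between these libraries, which may be technical. GENCODE M21 gave coordinates and transcript lengths (12130 genes matched), and RefSeq promoter windows gave sequences. Same-numbered libraries did not deviate together (correlations -0.117, -0.329 and -0.0246).

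Values were given per library for genes without overlap between groups, the 4 largest and 4 smallest differences, and 12 step enzymes. Of the wider pathway, genes at an unadjusted p under 0.05 were named. The members, lists and tests were chosen with earlier results of these data known. Alternatives were no trend, robust eBayes, weights for library quality, removal of genes with a mean log2 value under 1, a pseudocount of 1 CPM, median centering, the melanoma marker mean as a covariate, a replicate block, median transcript length and leaving out each library.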

Additional observations from a re-analysis of the deposited data

How the results depend on the processing

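*Acadl* was lower in *Nr3c1* Foxp3-Cre Tregs in all 14 alternatives, by log2 differences from -0.60 to -0.48, and was at an unadjusted p under 0.05 in each. Its adjusted p ranged from 0.0346 to 1. The count of fatty acid oxidation genes at an adjusted p under 0.05 was 1 with library quality weights, which called 19 of all genes where the fit described above called 7, and 0 in the other alternatives. At an unadjusted p under 0.05 the count was 2 without a mean-variance trend (*Acadl* and *Acsl1*), 3 with library quality weights (*Acadl*, *Cpt1a* and *Decr1*), where 11.3% of all genes were, and from 1 to 2 when each library was left out in turn. Without a trend 0 of all genes were called, with 469 at an unadjusted p under 0.05. The count over all genes was 18 when the melanoma markers entered as a covariate, and without 1 library from 0 to 8. The median difference of the 40 genes stayed between -0.043 and 0.019, and the count of genes without overlap was 3 with median centering and with a minimum mean value. The limma adjusted p of *Tsc22d3* ranged from 0.000418 to 0.221 over the 14 alternatives and was above 0.05 in 6 of them. That of *Nr3c1* ranged from 0.00414 to 0.648. The cause of these changes was not tested.

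With the replicate number as a block, 1 of the 40 genes was at an unadjusted p under 0.05, *Acadl*, and 0 of the 40 and 0 of all genes were called (275 at an unadjusted p under 0.05). It is not known whether the numbers pair the libraries.

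Signs reversed in some alternatives for genes whose difference in the fit described above was smaller than its SE. Of these, *Cpt1a* was not near 0 in that fit, at -0.16 (SE 0.21). Without control library 1 it was at -0.40, with an unadjusted limma p under 0.05, and without control library 3 at 0.016. With library quality weights *Acadvl* was at 0.0038 and *Ppargc1b* at -0.31. Leaving out each library gave ranges of -0.40 to 0.016 for *Cpt1a*, -0.11 to 0.087 for *Acadvl*, -0.091 to 0.061 for *Hadha*, -0.010 to 0.089 for *Hadhb*, -0.016 to 0.12 for *Etfdh*, -0.055 to 0.18 for *Acsl4*, -0.22 to 0.37 for *Ppargc1b* and -0.089 to 0.068 for *Crot*.

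The change of *Acsl3* with the melanoma markers, for which every alternative was chosen after seeing the data, was 0.81 without a trend (adjusted p = 0.0741 in limma, 0 of the 40 genes called) and from 0.697 to 0.979 without 1 library, with 0 to 1 of the 40 called. With the replicate block it was 0.814. With 3 libraries a group and unknown depth, small differences of single genes were not resolved.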
